A study of Mus musculus with 2 samples.

Results

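The 10 genes described here license origins of DNA replication: Cdt1, Gmnn, Cdc6, Orc1 and Mcm2 to Mcm7, taken by name out of 55413 genes annotated on the assembled mouse chromosomes. Their CpG methylation was read in 2 libraries made by reduced representation bisulfite sequencing, in which DNA is cut at CCGG by MspI and at TCGA by TaqαI and short fragments are treated with bisulfite, so that an unmethylated cytosine is read as T and a methylated one as C. Both libraries came from mouse C3H myoblasts that had been differentiated into myotubes, the multinucleate muscle cells formed in culture, and both were harvested 48 h after transfection. One library was from myotubes given a control siRNA (siCon), the other from myotubes in which the long non-coding RNA H19 was targeted by siRNA (siH19), and the labels give no other difference between them. There was 1 library per group, so every p-value below compares 2 libraries and not 2 conditions, no value has an error between cultures, and intervals cover counting error only. The libraries hold DNA, so neither the level of H19 nor the identity of the cells as myotubes could be checked in them. The study chose Cdt1 from these same libraries as a gene with more methylation in siH19, so its values here are not independent evidence. In further transfections the study measured a stretch of Cdt1 by methylation-specific PCR and reported more methylation with siH19. That stretch was not located here.

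In G1 phase the origin recognition complex, of which Orc1 is a subunit, and Cdc6 sit on origins, and Cdt1 brings the Mcm2-7 ring, the core of the replicative helicase, onto the DNA. Geminin, the product of Gmnn, binds Cdt1 and blocks further loading after S phase has begun. These genes are known targets of E2F factors, they are active in dividing cells, and myotubes have left the cell cycle. Most promoters of such housekeeping and cell-cycle genes lie in CpG islands, which are as a rule unmethylated, while the transcribed region downstream is as a rule methylated.

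The libraries held 5453019 cytosines in siCon and 5266846 in siH19, with median depths of 12 and 13 reads. A cytosine was compared when it had at least 5 reads in each library and lay outside CCGG and TCGA, which left 1850635 cytosines of all chromosomes. The 10 genes held 695 of them, at 386 CpGs, with median depths of 29 reads in siCon and 30 in siH19. Of these, 492 lay in the window within 1 kb on each side of the gene start and 203 in the rest of the transcribed region. All 10 windows could be tested. Gmnn had no covered cytosine outside its window, so 9 genes were tested there. The share of the window CpGs that was covered ranged from 23.3% in Mcm3 to 43.8% in Mcm7, and that of the downstream CpGs in the other genes from 1.81% in Orc1 to 13.3% in Mcm7, so most CpGs of these genes were not read. In short restriction fragments the deposited depth was raised. Where the farther end of a fragment lay under 48 bases from a cytosine, the median depth was 1.87 times that at the fragment's restriction-site ends in siCon and 1.90 times in siH19, over all chromosomes, and elsewhere it was 1.00 times. Of the 695 cytosines of the 10 genes, 105 (15.1%) lay so, against 14.7% of all, so a DNA molecule may be counted 2 times in their reads and the intervals and p-values that rest on them may be too small. As an alternative, added once these depths had been seen, the reads of such cytosines were divided by 2 and the minimum of 5 reads applied again.

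E2F sites are the feature of these promoters that the pathway is known for, and the letters searched (TTTCCCGC, TTTGGCGC, TTTCGCGC and TTTGCCGC, both strands) all hold a CpG. They were found in 742 of 32817 promoters of the RefSeq table (GRCm38.p6, 250 bases before to 50 after a start), or 2.26%. The table held 9 promoters of 8 of the 10 genes, Gmnn and Mcm4 being the others, and 7 of the 9 held a match, in 7 genes. The Mcm2 promoter and the second promoter of Mcm7 held none. Overlapping matches in Mcm5 and in Mcm6 are printed as 1 run. Each match is shown in capitals within 30 bases of RefSeq sequence, read 5′ to 3′ on the strand of the gene.
Cdt1 E2F match 1, chr8:122568036-122568065, plus strand: ggaactaccttTTTGGCGCcatggcgcaaa
Cdc6 E2F match 1, chr11:98908002-98908031, plus strand: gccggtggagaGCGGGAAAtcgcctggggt
Orc1 E2F match 1, chr4:108579416-108579445, plus strand: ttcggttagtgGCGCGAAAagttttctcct
Mcm3 E2F match 1, chr1:20820256-20820285, minus strand: acttgggaagtTTTGGCGCcaaggcggtgt
Mcm3 E2F match 2, chr1:20820275-20820304, minus strand: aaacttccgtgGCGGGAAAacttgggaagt
Mcm5 E2F match 1, chr8:75109347-75109376, plus strand: gccaagaacTTTCGCGCCAAAacgtccagc
Mcm6 E2F match 1, chr1:128359734-128359763, minus strand: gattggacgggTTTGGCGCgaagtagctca
Mcm6 E2F match 2, chr1:128359795-128359824, minus strand: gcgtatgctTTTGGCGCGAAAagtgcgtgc
Mcm7 E2F match 1, chr5:138171849-138171878, minus strand: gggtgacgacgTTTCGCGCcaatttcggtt
Mcm7 E2F match 2, chr5:138172030-138172059, minus strand: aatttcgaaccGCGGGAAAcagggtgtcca
Few of these CpGs were in the sequenced fragments. In Mcm7 all 6 cytosines of the matches were at 0 methylated reads, of 34 to 42 reads each in siCon and 12 or 13 in siH19. In Cdc6 the CpG of the match at position 98908014 of chromosome 11 had 0 of 47 methylated reads in siCon and 3 of 91 in siH19 on the plus strand, and 0 of 14 and 2 of 27 on the minus strand. The matches of Cdt1, Orc1, Mcm3, Mcm5 and Mcm6 had at most 1 read on either strand in either library. RefSeq starts are not always the GENCODE starts from which distances are counted elsewhere here. The matches of Cdt1, Cdc6, Orc1, Mcm3 and Mcm7 lie downstream of the GENCODE starts of these genes, and those of Mcm5 and Mcm6 upstream. The Sp1 letters GGGCGG, both strands, were in 7 of the 9 promoters against 35.6% of all promoters, and CCAAT in 7 of 9 against 37.4%. A match is a description of the letters and not of a bound factor.

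The windows of all 10 genes were close to unmethylated in both libraries, and the transcribed regions beyond them were mostly methylated. Summed over the 10 windows, 213 of 18941 reads were methylated in siCon (1.12%) and 257 of 19353 in siH19 (1.33%). In such sums, here and for every region below, a read is counted at each cytosine it covers. The counting intervals of levels and differences take these counts as independent, so they are too narrow. Of the 492 window cytosines, 310 (63.0%) had no methylated read in either library, and no window cytosine reached 50% in either. The median window level was 0.977% in siCon and 0.896% in siH19, against 2.07% and 2.05% for the promoters of 13554 protein-coding genes. Downstream the median level of the 9 genes was 76.9% and 77.0%, against 58.3% and 58.8% for 13994 protein-coding genes. In siCon the windows ran from Orc1 through Mcm4, Cdt1, Mcm3, Mcm2, Gmnn, Mcm7, Cdc6 and Mcm5 down to Mcm6, and the counting intervals of every neighbouring pair overlapped. Downstream the order in siCon was Orc1, Mcm5, Cdt1, Mcm2, Mcm6, Mcm3, Mcm4, Cdc6 and Mcm7, and only Cdt1 and Mcm2, and Cdc6 and Mcm7, had neighbouring intervals that lay apart, in both libraries.

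**Figure D1:**
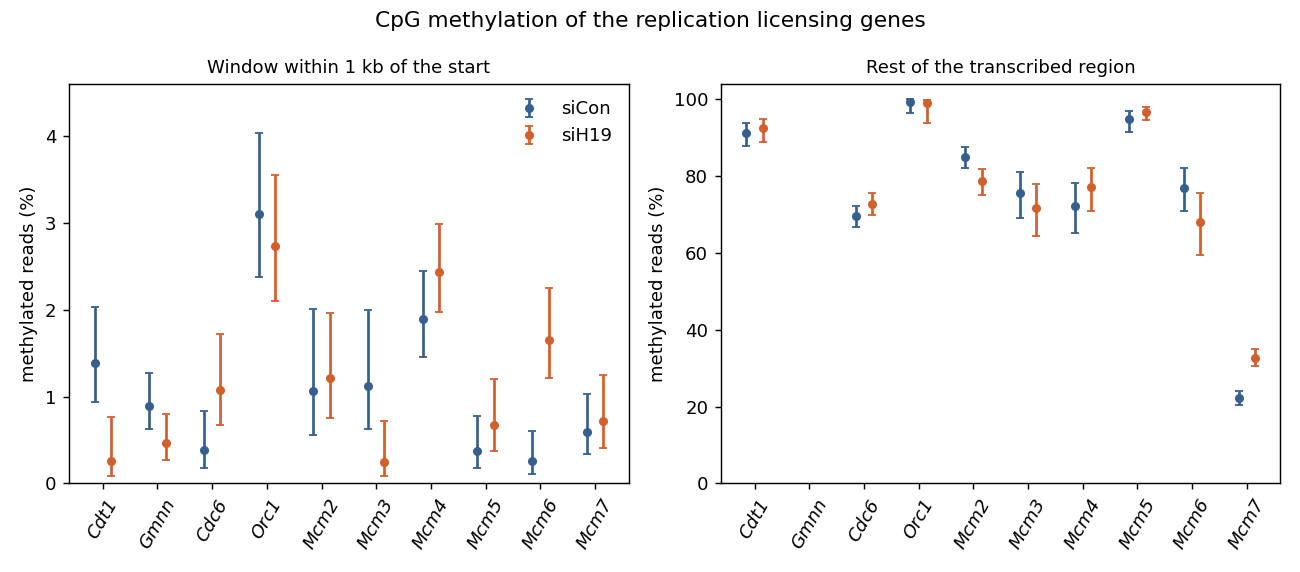
Share of methylated reads (%) of each gene in siCon (blue) and siH19 (orange), in the window (left) and in the rest of the transcribed region (right), with Wilson 95% counting intervals. Every window lies at or under 3.10%, while 8 of the 9 downstream regions lie at 68.0% or more and that of Mcm7 at 22.2% and 32.7%. Gmnn has no covered cytosine downstream.

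The step from low to high methylation lay between the last cytosine under 10% and the first at 50% or more in both libraries, going downstream from the start. It was bracketed most closely in Mcm7, between 1664 and 2787 bp, and in Cdt1, between 977 and 2139 bp. In Cdc6 it lay between 271 and 2387 bp and in Mcm3 between 346 and 3224 bp. Coverage left wider gaps in the other genes, up to 15548 bp in Orc1. Beyond 2 kb, 112 of 179 cytosines (62.6%) were at 80% or more in both libraries and 4, in 3 genes, were under 10% in both. By annotation, 5′ UTR cytosines were at 0.505% (siCon) and 0.526% (siH19), upstream cytosines 1.34% and 1.60%, intron cytosines 16.1% and 19.4%, coding-exon cytosines 38.6% and 35.1%, and the 11 cytosines in the 3′ UTR, all of Cdc6, 53.3% and 56.0%. The intron and exon values mix cytosines inside and outside the windows.

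**Figure D2:**
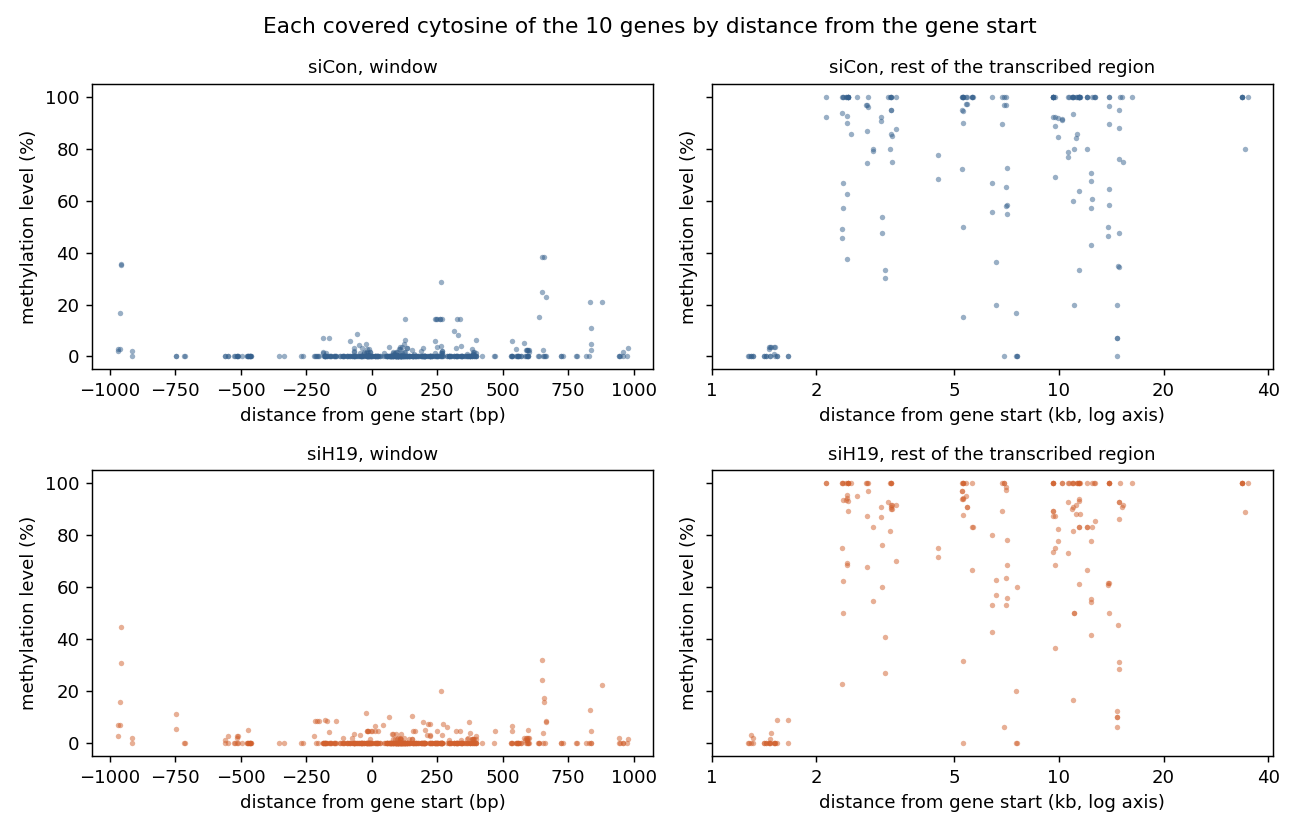
Methylation level (%) of each of the 695 cytosines against its distance from the gene start, in siCon (top) and siH19 (bottom), within the window (left, bp) and beyond it (right, kb, log axis). Window cytosines lie below 50% in both libraries, and 112 of the 179 cytosines beyond 2 kb lie at 80% or more in both.

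Cdt1, the loading factor, had 25 of 1811 methylated window reads in siCon (1.38%, 95% interval 0.937 to 2.03) and 3 of 1141 in siH19 (0.263%, 0.0895 to 0.770). The siH19 level was the lower one, at 16 of 41 cytosines, with 2 cytosines higher and 23 equal. With each cytosine given the same weight in both libraries (the Cochran-Mantel-Haenszel test stratified by cytosine, used for all region tests here), the difference was -1.06 points (95% counting interval -1.71 to -0.414). Its p-value was 0.0060 and its adjusted p, over 19476 promoters, 0.068, so it did not pass the threshold of 0.05. It did pass with the strands of each CpG summed (-1.29 points, adjusted p 0.0104) and by Fisher's exact test on the window's total reads (-1.12 points, adjusted p 0.0136). With reads divided by 2 where both fragment ends were near, it was -1.02 points (adjusted p 0.130). Over 16 settings, the main one included, the difference ran from -2.49 to -0.441 points and its adjusted p reached 0.812. A 189-bp fragment, at 242 to 398 bp, held 5 of the 25 methylated siCon counts on its plus strand and 10 on its minus strand. It held 0 in siH19. The difference between the strands of the same CpGs, 1.69 points within siCon and 0.523 points within siH19, was larger than that between the libraries in siCon and smaller in siH19. The 250 bases before the start of Cdt1 are shown because the covered CpGs, in capitals, lie in only a part of them.
Cdt1, chr8:122567765-122568014, plus strand: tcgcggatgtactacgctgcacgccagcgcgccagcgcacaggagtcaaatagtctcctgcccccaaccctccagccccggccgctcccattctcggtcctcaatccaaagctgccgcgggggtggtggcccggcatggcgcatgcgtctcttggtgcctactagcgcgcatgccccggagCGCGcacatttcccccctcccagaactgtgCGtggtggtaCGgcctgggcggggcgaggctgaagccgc
The levels of these 4 CpGs were at most 3.45% in siCon and 3.57% in siH19.

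In the rest of Cdt1 the levels were high in both libraries, with 302 of 331 methylated reads in siCon (91.2%) and 277 of 300 in siH19 (92.3%). The same-weight difference was 1.82 points (95% counting interval -1.96 to 5.61, adjusted p 0.780), with 10 cytosines higher, 8 lower and 6 equal. The intron and exon cytosines at 2139 to 2471 bp had 90.6% and 92.9% methylated reads and the exon cytosines at 3267 to 3389 bp 91.9% and 91.5%. A minus-strand cytosine at 2457 bp was at 6 of 16 reads in siCon and 9 of 13 in siH19, while the one 14 bp further on was at 16 of 16 and 13 of 13. The 3 protein-coding genes most like Cdt1 in these 4 levels, by Euclidean distance among 8458 genes, were Ptpn23 (0.583 points), Afg3l1 (0.666) and Tubgcp2 (0.698).

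Gmnn, which encodes the inhibitor of Cdt1, had 29 of 3255 methylated window reads in siCon (0.891%) and 13 of 2770 in siH19 (0.469%). The same-weight difference was -0.386 points (-0.844 to 0.0723, adjusted p 0.315). The 16 upstream cytosines were at 14 of 1052 and 1 of 526 reads, and the 18 cytosines of the 5′ UTR at 7 of 1087 and 4 of 1621. The 14 intron cytosines were at 8 of 1116 and 8 of 623. The upstream and 5′ UTR parts were thus lower in siH19, and the intron part was higher. A 5′ UTR cytosine 126 bp from the start had 4 of 62 methylated reads in siCon and 0 of 153 in siH19, in a 68-bp fragment whose minus-strand cytosines nearer its ends had 31 reads in siCon and 76 or 77 in siH19. With reads divided by 2 there, the difference of the window was -0.270 points (adjusted p 0.603).

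Cdc6, the ATPase that works with Cdt1, had 6 of 1573 methylated window reads in siCon (0.381%) and 17 of 1578 in siH19 (1.08%), a same-weight difference of 0.532 points (0.0284 to 1.04, adjusted p 0.318). Downstream it had 69.6% in siCon and 72.7% in siH19, while the same-weight difference was -0.886 points (-4.04 to 2.27, adjusted p 0.888), with 18 cytosines higher and 18 lower. Its 3′ UTR held low and high cytosines close together. The 4 cytosines at 14674 to 14678 bp had 6 of 68 methylated reads in siCon (8.82%) and 5 of 52 in siH19 (9.62%), and the plus-strand cytosine at 14855 bp had 74 of 84 and 65 of 70.

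Orc1, a subunit of the origin recognition complex, had the highest window level in both libraries, 53 of 1708 reads in siCon (3.10%) and 54 of 1979 in siH19 (2.73%). The Wilson intervals of Orc1 and Mcm4, next in order, overlapped in both libraries. Most of the Orc1 value came from 8 upstream cytosines at -969 to -914 bp, with 12.3% and 13.4% methylated reads, and the other 55 cytosines had 0.805% and 0.606%. Within that fragment the CpG at -957 bp had 17 of 48 methylated reads in siCon and 17 of 38 in siH19, and the CpG at -915 bp had 1 of 49 and 0 of 40. The same-weight difference of the window was 0.0906 points (-0.939 to 1.12, adjusted p 0.956). Prpf38a starts 87 bp upstream on the other strand, so both genes share this window. Downstream only 7 cytosines of Orc1 were covered, with 150 of 151 and 85 of 86 methylated reads.

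Mcm6, a subunit of the helicase ring, was the 1 window of 10 that passed the test, against 7.39% of all 19476 promoters tested (4.92% called higher and 2.47% lower in siH19). It had 5 of 1919 methylated reads in siCon (0.261%, 0.111 to 0.609) and 40 of 2415 in siH19 (1.66%, 1.22 to 2.25). The window thus rose by 1.12 points (SE 0.263, 0.608 to 1.64, adjusted p 0.0078), with 22 cytosines higher, 4 lower and 30 equal, and its level moved from the lowest of the 10 genes to the third. The size was small: 122 promoters, 0.626% of those tested, were called with at least 10 points, and no window of the 10 genes was.

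The methylated reads of Mcm6 were unevenly spread. The plus strand of the 54-bp fragment across the gene start held 17 of the 40 in siH19, at 9 cytosines with 1 to 3 methylated reads each, and 0 in siCon. A read is counted at each cytosine it covers, so these 17 need not be 17 separate reads. How many molecules they came from was not tested. At the 7 inner cytosines of that strand the depth was 44 reads in siH19, exactly 2 times the 22 reads at both outer cytosines, and the same ratio of 2 held on the minus strand and in siCon, as in other short fragments. With reads divided by 2 at such cytosines of all genes, the difference was 1.07 points and its adjusted p 0.0212, and 921 promoters were called over all genes against 1440 with reads as deposited. Without this fragment the difference was 0.884 points and its adjusted p 0.0503. With 1 cytosine, the deepest, per fragment and strand the difference was 1.25 points and the adjusted p 0.572, and with reads divided by 2 as well it was 1.07 points and 0.871. The minus and plus strands gave 1.27 and 1.01 points (adjusted p 0.0611 and 0.116). Downstream, Mcm6 had 76.9% and 68.0% methylated reads at 9 cytosines, and the same-weight difference was -2.23 points (-11.5 to 7.09, adjusted p 0.905).

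Mcm2, another ring subunit, was the 1 downstream region of 9 that passed, against 1.4% of the 18018 tested (0.96% called higher and 0.438% lower in siH19). With a minimum of 10 points 0.316% of those tested were called and none of the 9. It had 531 of 625 methylated reads in siCon (85.0%, 81.9 to 87.5) and 426 of 542 in siH19 (78.6%, 74.9 to 81.8). The level fell by 6.18 points at the same weights (SE 1.76, -9.62 to -2.74, adjusted p 0.0466), with 5 cytosines higher, 20 lower and 11 equal. All 36 cytosines lay in 5 restriction fragments. The first, 5300 to 5424 bp from the start, was at 78.0% (siCon) and 67.4% (siH19), and the next, at 5621 to 5645 bp, had 55 of 55 and 20 of 24. At 9607 to 9719 bp the levels were 94.7% and 80.9%, and at 10911 to 11006 bp 98.6% and 93.7%. The last, at 13822 to 13944 bp, was the only one higher in siH19, with 120 of 160 and 129 of 164 reads. In the other 4 no cytosine was higher in siH19.

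**Figure D3:**
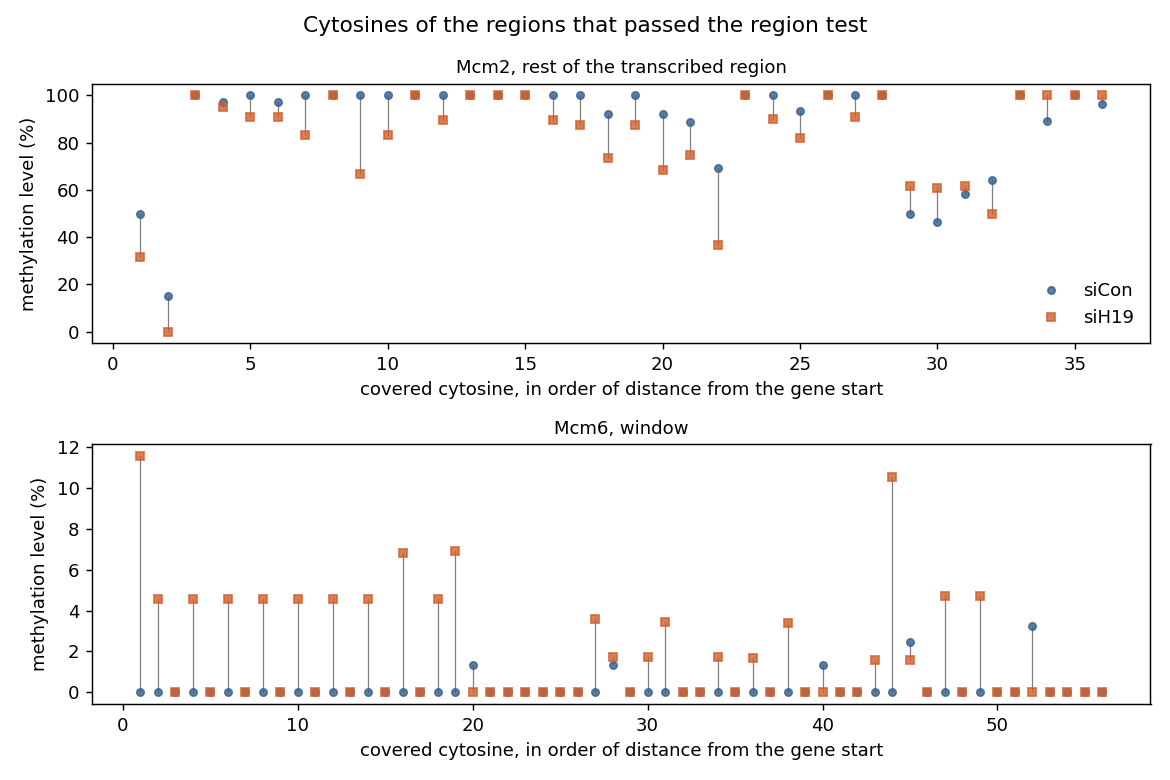
Methylation level (%) of each covered cytosine of Mcm2 outside its window (top, 36 cytosines) and of Mcm6 in its window (bottom, 56 cytosines), in order of distance from the gene start, in siCon (blue circles) and siH19 (orange squares), joined by a grey line. In Mcm2, 20 cytosines are lower in siH19 and 5 higher, and in Mcm6, 22 are higher and 4 lower.

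A pair of these coding-exon stretches of Mcm2 is printed on the strand of the gene, with the covered CpGs in capitals, because the former holds the most covered cytosines and the latter the widest range of levels.
Mcm2, chr6:88889055-88889179, minus strand: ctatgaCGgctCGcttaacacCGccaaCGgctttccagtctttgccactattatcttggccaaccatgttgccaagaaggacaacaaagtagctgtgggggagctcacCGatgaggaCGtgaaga
Mcm2, chr6:88893349-88893486, minus strand: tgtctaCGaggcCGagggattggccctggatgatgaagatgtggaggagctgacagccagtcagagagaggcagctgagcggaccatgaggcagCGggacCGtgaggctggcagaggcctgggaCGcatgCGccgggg
In the first stretch, the plus-strand cytosine at 9719 bp was at 9 of 13 methylated reads in siCon and 7 of 19 in siH19, and the one at 9613 bp was at 13 of 13 and 19 of 19. In the second, the minus-strand cytosines at 5388 to 5424 bp were at 97.1% or more in siCon and at 90.9% or more in siH19, while those at 5306 and 5300 bp were at 5 of 33 and 16 of 32 reads in siCon and 0 of 22 and 7 of 22 in siH19. No single cytosine of Mcm2 outside a restriction site had a p-value under 0.05. Leaving out any fragment but the last ended the call, with differences of -3.97 to -6.28 points and adjusted p-values of 0.0756 to 0.403, and leaving out the last gave -10.1 points and 0.00011. With 1 cytosine per fragment and strand the difference was -7.99 points (adjusted p 0.358). None of its cytosines there lay near both ends of a fragment, but with reads divided by 2 in the other regions its adjusted p became 0.0687.

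The Mcm2 window had 9 of 847 methylated reads in siCon (1.06%) and 16 of 1316 in siH19 (1.22%), a same-weight difference of -0.0294 points (-0.959 to 0.900, adjusted p 0.984). Of these, 8 and 11 methylated reads belonged to 2 intron cytosines at 833 and 877 bp, and the 33 cytosines nearer to the start had 1 of 809 and 5 of 1254.

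Mcm3 had the single cytosine with a difference of at least 33 points and a p-value under 0.05. This minus-strand intron cytosine, at position 20813906 of chromosome 1 and 6406 bp from the start, was at 16 of 16 methylated reads in siCon and 16 of 30 in siH19 (-46.7 points, Fisher's exact p 0.00068, adjusted p 0.615 over all cytosines). Its 56-bp fragment had 8 and 15 reads at the minus-strand cytosine of its end, so both depths were 2 times those at the end. At 8 of 8 and 8 of 15 reads, Fisher's exact p was 0.0520. Its partner on the plus strand was at 8 of 12 and 24 of 30, the other direction, also 2 times the depths at the end. The sequence around it is shown with this CpG in capitals.
Mcm3, chr1:20813887-20813923, minus strand: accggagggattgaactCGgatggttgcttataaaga
Another intron cytosine of Mcm3, at 6923 bp, was at 0 of 30 and 1 of 16 methylated reads, and the one 10 bp away at 29 of 30 and 16 of 16. The window of Mcm3 had 11 of 983 methylated reads in siCon (1.12%) and 3 of 1217 in siH19 (0.247%), a difference of -0.861 points (-1.76 to 0.0357, p 0.0255, adjusted p 0.162). Downstream it had 75.5% and 71.6% at 10 cytosines, a difference of -5.03 points (-11.7 to 1.60, adjusted p 0.601).

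Mcm4 had 56 of 2964 methylated window reads in siCon (1.89%) and 88 of 3621 in siH19 (2.43%), a same-weight difference of 0.165 points (-0.487 to 0.817, adjusted p 0.838). The 2 strands gave opposite differences that both passed the test. The plus strand went from 0.686% to 2.80% (2.02 points, adjusted p 0.00073) and the minus strand from 3.31% to 2.00% (-1.98 points, adjusted p 0.0071). Over all genes, 1125 of 16704 promoters were called on the plus strand alone and 1156 of 16674 on the minus strand alone. Of the 10 windows, that of Mcm4 was the 1 called on either strand alone. An 8-cytosine stretch of coding exon at 639 to 665 bp held 36 of the 56 methylated reads in siCon and 51 of the 88 in siH19. There the plus strand had 6.25% and 12.6%, and the minus strand 28.8% and 14.1%. These 8 cytosines had 24 to 26 reads in siCon and 45 to 50 in siH19, against 12 or 13 and 23 or 25 at the ends of their 59-bp fragment. With reads divided by 2 where both ends were near, the difference of the window was 0.364 points (adjusted p 0.611). Prkdc starts 466 bp upstream on the other strand, inside the window. Downstream Mcm4 had 72.1% and 77.0%, a same-weight difference of 0.428 points (-4.76 to 5.62, adjusted p 0.972). Intron cytosines at 7542 and 7546 bp were low, each with 0 of 12 and 0 of 10 methylated reads, while nearby cytosines were at 1 of 6 and 1 of 5 (7515 bp) and at 0 of 6 and 3 of 5 (7563 bp).

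Mcm5 had 7 of 1848 methylated window reads in siCon (0.379%) and 11 of 1639 in siH19 (0.671%), a difference of 0.163 points (-0.329 to 0.655, adjusted p 0.773). Downstream it had 94.9% and 96.6% at 12 cytosines, a difference of 1.5 points (-1.49 to 4.50, adjusted p 0.737). One minus-strand intron cytosine of Mcm5, at 5250 bp, was at 13 of 18 and 35 of 35 methylated reads.

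Mcm7 had 12 of 2033 methylated window reads in siCon (0.590%) and 12 of 1677 in siH19 (0.716%), a same-weight difference of -0.0967 points (-0.666 to 0.473, adjusted p 0.894). It was the gene in which summed reads and same-weight values differed most. Downstream its summed level was 22.2% in siCon and 32.7% in siH19, and Fisher's exact test on those sums gave 10.4 points and an adjusted p of 2.8e-11. At the same weights the difference was 0.310 points (-1.41 to 2.03, adjusted p 0.927), with 14 cytosines higher and 14 lower. The 24 intron cytosines at 1276 to 1664 bp, most of them in the island that holds the start, were at 0.633% and 0.647%. The second RefSeq promoter of Mcm7, chr5:138171217-138171516, lies between the GENCODE start and these 24 cytosines. The 16 further cytosines were at 71.4% and 68.2%. The near cytosines took 69.5% of the downstream reads in siCon and 52.6% in siH19, so the libraries placed their reads differently. Ap4m1 starts 420 bp into Mcm7 on the other strand, and the microRNA genes Mir25, Mir93 and Mir106b lie 6604 to 7018 bp from its start.

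**Figure D4:**
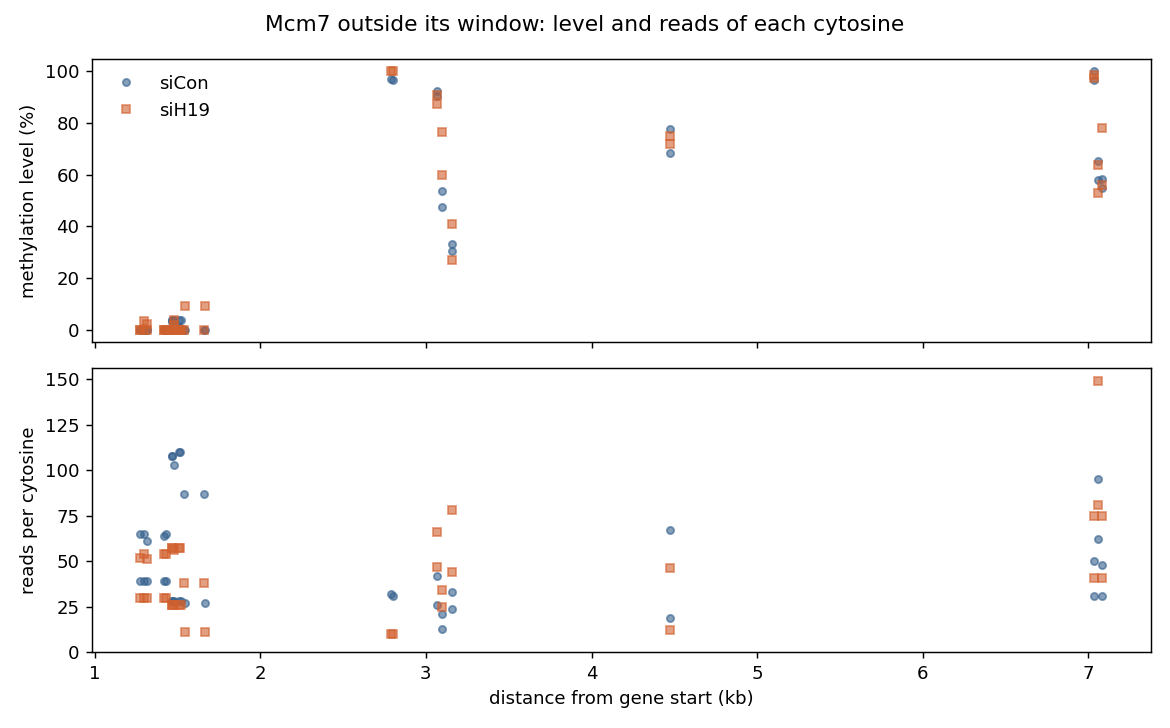
Methylation level (%, top) and number of reads (bottom) of the 40 covered cytosines of Mcm7 outside its window, against distance from the gene start (kb), in siCon (blue circles) and siH19 (orange squares). Levels lie in the same ranges in both libraries, while siH19 has fewer reads at 1276 to 1664 bp (927 against 1422) and more beyond 2 kb (834 against 625).

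Across the 10 genes, 11 of the 695 cytosines (1.58%) had a p-value under 0.05, 4 higher and 7 lower in siH19, against 2.53% of all cytosines compared. The Mcm3 cytosine was the only strongly changed one (p under 0.05 and at least 33 points), against 0.986% of all and 0.467% for those lower in siH19. With reads divided by 2 where both fragment ends were near, none of 690 was strongly changed, against 0.745% of all, and 4 (against 1.73% of all) had a p-value under 0.05. By Fisher's exact test none had an adjusted p under 0.05, against 0.00648% of all, and the lowest was 0.615. Of the window differences 5 were above 0 and 5 below, with a median of 0.0306 points, against 0.0884 over all promoters. Downstream 5 were above and 4 below, with a median of 0.310 points against 0.177. The median absolute difference between the libraries was 0.275 points in the windows, while the strands of the same CpGs differed by a median of 0.652 points within siCon and 0.547 within siH19. Downstream it was 1.5 points, against 3.10 and 5.27 between strands. The strand differences use only CpGs covered on both strands, 228 in the windows and 81 downstream, within 1 library, so they rest on fewer reads. Reads that cover several cytosines enter a region test more than once, so these p-values are too small.

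**Figure D5:**
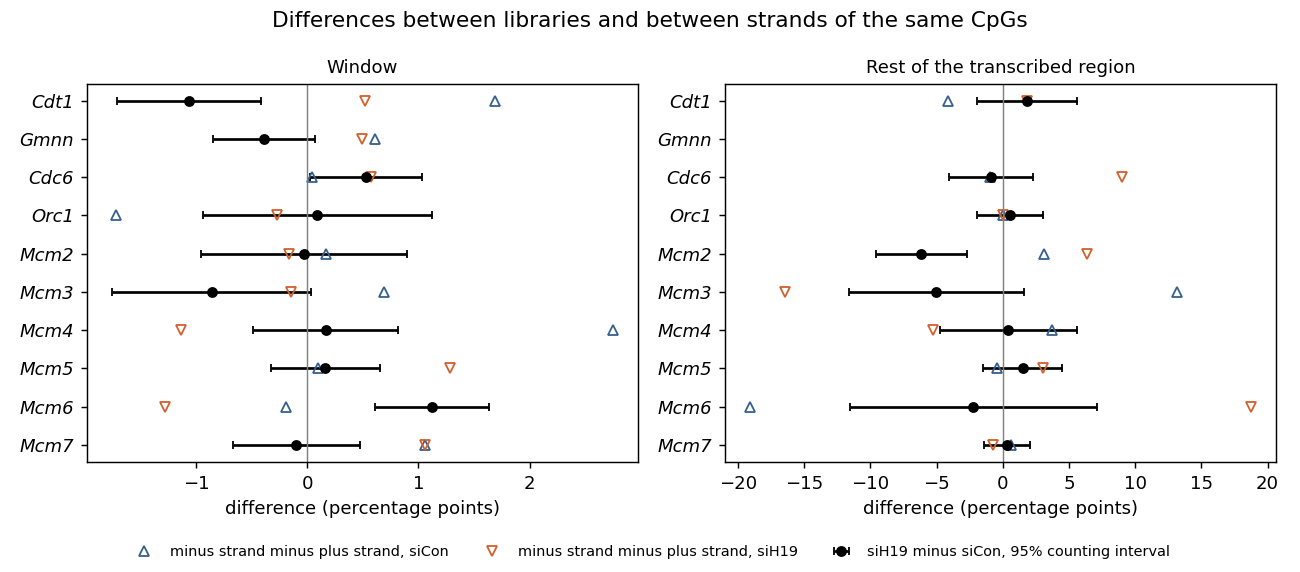
Difference in methylation (percentage points) of each gene in the window (left) and in the rest of the transcribed region (right). Black points are siH19 minus siCon at the same weights with 95% counting intervals, and triangles are the minus strand minus the plus strand of the same CpGs within siCon (blue) and siH19 (orange). Differences between strands reach 2.75 points in the windows and 19.1 points downstream, against 1.12 and 6.18 points between the libraries. The 19.1 points are those of Mcm6 in siCon, from 2 CpGs, and differences between strands have no interval here.

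The promoters of the other genes of the pathway were mostly low as well. The median promoter level in siCon was 0.940% for further origin and helicase genes and 0.897% for replication fork genes. It was 1.45% for genes that control Cdt1, geminin and S phase entry and 0.751% for E2F and DP factors. Downstream the medians were 84.7%, 85.3%, 36.6% and 82.4% in that order, against 76.9% for the 9 genes above. Over 4 further lists, 5 of 68 promoters tested (7.35%) passed the test, of which 3 rose and 2 fell, against 7.39% of all promoters, and 0 of 57 downstream regions did, against 1.4% of all. Of 19 further origin and helicase genes, 19 promoters were tested, all under 5% in siCon, with a median difference of -0.0759 points. Orc2 rose by 0.620 points and Gins2, a subunit of the GINS complex of the active helicase, fell by 1.58 points. None of their 16 downstream regions was called (median difference 0.0613 points). Of the genes that control Cdt1, geminin and entry into S phase, 17 promoters were tested (median difference -0.165 points). Cdk2, the S phase kinase, rose by 1.06 points. Cul4b, a scaffold of the ubiquitin ligase that marks Cdt1 for degradation, fell from 49.6% to 32.4% of reads at 12 cytosines, by 15.6 points at the same weights (SE 3.11, adjusted p 0.00032), the only called region of the 4 lists with at least 10 points. Values of list genes were taken in the main setting only, so how far the Cul4b call depends on the settings is not known. None of the 14 downstream regions of that list was called (median difference 0.158 points). Of the replication fork genes, 22 promoters were tested (median difference 0.0589 points), Prim2, a primase subunit, rose by 1.65 points, and none of 20 downstream regions was called (median difference 0.478 points). Of the E2F and DP factors none of 10 promoters and none of 7 downstream regions was called (median differences 0.0625 and -0.382 points).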

How the data were processed

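DNA methylation was profiled in 2 libraries of C3H myotubes, 1 per siRNA, grouped by the sample labels. By the study's methods, alignment was by Bismark, run by the authors' service provider in non-directional mode, and filled-in nucleotides were trimmed. A level was the share of C among C and T calls. Whether the trimming reached every restriction-site cytosine of the deposited files was not tested. The submitters' processing notes name bcl2fastq 1.8.4 and mm10. The Bismark version and any removal of duplicates were not given in the sources used here. The main values in the deposited files are of another type, text entries that join the methylated and the total read number of a cytosine, not normalized between libraries. The deposited score, the methylated fraction up to 1000, served only to check the parsed counts and matched them in 100% of entries. All positions lay on CpGs of GRCm38, and coordinates count from 1. Cells were C3H and the reference is another strain, so a C-to-T difference between strains would be read as unmethylated.

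Genes came from GENCODE vM21 basic. Islands around the 10 genes were 200-bp windows with a GC content from 50% and a CpG ratio (observed over expected) from 0.6, merged where they overlapped. Cytosines inside CCGG and TCGA were left out. Reads were used as deposited, including those counted from both ends of short fragments, and dividing these by 2, rounded for Fisher's exact test, was an alternative added later. Regions with at least 5 covered cytosines were tested for all genes by a two-sided Cochran-Mantel-Haenszel test stratified by cytosine, and single cytosines by Fisher's exact test, also two-sided, with Benjamini-Hochberg adjustment over all regions or cytosines and a threshold of 0.05. The weight of a cytosine was the product of its 2 depths over their sum. Intervals of levels are Wilson 95% intervals, which take the counts of a region's cytosines as independent. The tests were tried on simulated data. Python 3.11.15, numpy 2.4.6, scipy 1.17.1 and pandas 2.3.3 were used.

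The genes and the lists were chosen with earlier results of these data known. All 10 genes were named, with their strongly changed cytosines and those in E2F matches, and from the lists called regions with at least 10 points. Other cytosines, and the called list genes under 10 points, were named after their values were seen. Skp1 was not found under that name.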

Additional observations from a re-analysis of the deposited data

Results flagged for a closer look

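Cytosines inside the restriction sites were left out of the comparisons. The 10 genes held 364 of them with at least 5 reads in each library. The 180 in the windows were at 49.3% (siCon) and 49.9% (siH19), far above the other window cytosines. At several sites the strands lay at opposite ends of the scale. In Cdt1 the cytosine at -74 bp had 0 of 43 (siCon) and 0 of 17 (siH19) methylated reads, its partner 58 of 58 and 28 of 28. At 233 bp these were 0 of 76 and 0 of 34, and 49 of 49 and 16 of 16. A site's value thus depended on the strand read, and whether the differences below are of methylation was not tested. In this set 11 cytosines moved by at least 33 points with a p-value under 0.05 (5 higher and 6 lower in siH19), and 5 had an adjusted p under 0.05, that is 3.02% and 1.37% of the set, against 1.93% and 0.47% of the 1563169 restriction-site cytosines of all chromosomes. Of those, 3 stood above the control library. A CCGG cytosine of Cdt1, 171 bp upstream, was 85.7 points higher, at 2 of 14 methylated reads in siCon and 19 of 19 in siH19, while its partner strand went from 77.8% to 15.4%. A CCGG cytosine in an intron of Mcm2, 412 bp from the start, was 85.0 points higher, at 3 of 20 and 15 of 15 reads, while its partner went from 50% to 21.9%. A CCGG cytosine in the 5′ UTR of Mcm5, 98 bp from the start, was 51.7 points higher, at 4 of 48 and 15 of 25 reads, while its partner went from 93.9% to 75.9%. In all 3 the partner strand had the opposite sign. The other 2, in Cdc6 at 203 bp and in Mcm5 at -95 bp, differed by -26.1 and -32.6 points, and their partners were higher in siH19.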

How the results depend on the processing

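With 2 libraries and 1 per group, no result has a spread between replicates, and depth limits the downstream regions most, where 7 to 47 cytosines of a gene were covered. No paired analysis was possible because each group had 1 library and its replicate number came from the order of the samples. Gmnn had no downstream value to compare. The Mcm6 window was higher and the Mcm2 downstream region lower in siH19 under every alternative run, but both calls were often lost. For Mcm6 this was so, in points, with restriction-site cytosines kept (0.750), with 1 cytosine per fragment and strand (1.25, and 1.07 with reads also divided by 2), on the plus strand alone (1.01), on the minus strand alone (1.27) and with a minimum of 10 points for a call (1.12). For Mcm2 this was so, in points, with at least 10 reads (-5.54), with restriction-site cytosines kept (-3.03), with 1 cytosine per fragment and strand (-7.99, and -7.99 with reads also divided by 2), on the plus strand alone (-5.06), on the minus strand alone (-6.96) and with a minimum of 10 points for a call (-6.18). In alternatives chosen after seeing the data, reads were divided by 2 where both ends of a fragment were near, with which Mcm2 was not called (-6.18), and each fragment was left out in turn, and the call was lost in Mcm6 without the fragment at the start (0.884) and in Mcm2 without those at 10911 bp (-6.28), 9607 bp (-3.97), 5621 bp (-5.52) and 5300 bp (-5.29). Calls were gained for the Cdt1 window with the strands summed per CpG (-1.29), Mcm4 window on the plus strand alone (2.02, with the minus strand alone, -1.98, also called with the opposite sign), Cdt1 window by Fisher's exact test on a region's total (-1.12) and Mcm7 downstream by Fisher's exact test on a region's total (10.4). The differences that changed sign were not called as reported. With restriction-site cytosines kept the Cdc6 window (-0.802), Mcm2 window (0.340), Mcm7 window (0.0584), Orc1 downstream (-0.566), Mcm4 downstream (-0.974), Mcm5 downstream (-0.207) and Mcm6 downstream (1.91) changed sign. Without soft-masked repeats the Orc1 window (-0.325) and Mcm2 window (0.151) changed sign. With 1 cytosine per fragment and strand the Orc1 window (-0.657), Mcm2 window (0.505), Cdc6 downstream (0.380) and Mcm7 downstream (-1.11) changed sign, and with reads also divided by 2 the Gmnn window (0.458), Mcm2 window (0.386) and Mcm5 window (-0.0859). On the plus strand alone the Orc1 window (-0.439), Mcm2 window (0.422), Mcm5 window (-0.176), Mcm7 window (0.121), Cdt1 downstream (-1.11), Mcm3 downstream (3.88) and Mcm5 downstream (-0.736) changed sign. On the minus strand alone the Mcm4 window (-1.98), Cdc6 downstream (5.78), Mcm4 downstream (-5.71), Mcm6 downstream (9.53) and Mcm7 downstream (-0.366) changed sign. By Fisher's exact test on a region's total the Orc1 window (-0.374), Mcm2 window (0.153), Mcm7 window (0.125), Cdc6 downstream (3.13) and Orc1 downstream (-0.501) changed sign. In a window of 500 bases on each side the Orc1 window (-0.565), Mcm2 window (0.149) and Mcm7 window (0.109) changed sign. With the strands summed per CpG the Mcm4 downstream (-1.19) changed sign. Over the whole gene the Cdt1 downstream (-0.545), Cdc6 downstream (0.0619), Mcm4 downstream (-1.22) and Mcm6 downstream (0.736) changed sign. With unweighted means the Mcm6 window was 1.65 points, and the Mcm4 window (-0.946), Cdc6 downstream (0.362), Mcm4 downstream (-0.927) and Mcm6 downstream (2.35) had the other sign. Promoters called over all genes numbered 1440 as reported, and 771 with restriction-site cytosines kept, 921 with reads divided by 2, 37 with 1 cytosine per fragment and strand, 0 with both, 3279 by Fisher's exact test on a region's total and 122 with a minimum of 10 points for a call. Downstream regions called over all genes numbered 252 as reported, and 380 with restriction-site cytosines kept, 127 with reads divided by 2, 17 with 1 cytosine per fragment and strand, 1 with both, 4736 by Fisher's exact test on a region's total, 57 with a minimum of 10 points for a call and 860 over the whole gene. With the strands summed per CpG, or on 1 strand alone, calls over all genes changed by at most 1.5 times. Windows called among the 10 genes numbered 1 as reported, and 0 with restriction-site cytosines kept, 2 with the strands summed per CpG, 0 with 1 cytosine per fragment and strand, with or without dividing reads by 2, 2 by Fisher's exact test on a region's total and 0 with a minimum of 10 points for a call. Downstream regions called among them numbered 1 as reported, and 0 with at least 10 reads, 0 with restriction-site cytosines kept, 0 with reads divided by 2, 0 with 1 cytosine per fragment and strand, with or without that division, 0 on the plus strand alone, 0 on the minus strand alone, 2 by Fisher's exact test on a region's total and 0 with a minimum of 10 points for a call. Strongly changed cytosines in the 10 genes numbered 1 as reported, 5 at 25 points and 0 at 50 points. Shares over all cytosines at 25 and 50 points were not computed, so these counts cannot be set against them. Strongly changed cytosines of these genes numbered 12 with restriction-site cytosines kept, 0 with the strands summed per CpG and 0 with reads divided by 2. Those with an adjusted p under 0.05 numbered 0 as reported, and 5 with restriction-site cytosines kept. Leaving out the deepest 1% of cytosines or starting from the longest coding transcript changed none of these directions, calls or counts by over 1.5 times. The causes were not tested.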
